A study of Mus musculus with 4 samples.

Results

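The B cell receptor signals through a small set of proteins, and 9 of their genes were followed here across 4 subclones of the mouse hybridoma 36-65: Cd79a, Cd79b, Cd22, Ptpn6, Syk, Btk, Blnk, Bank1 and Lyn. They were chosen by name, as receptor chains, coreceptors, kinases, adaptors and a phosphatase, with earlier results of these data known. Every probe set with 1 of these symbols in the platform annotation was taken, which gave 13 probe sets for 8 genes, of 45037 probe sets tested. No probe set was matched to Lyn, a kinase of the Src family, and it was not analysed here. A hybridoma secretes antibody and comes from the fusion of a B lymphocyte and a myeloma cell. Subclones L25 and L27 (low switching replicates 1 and 2) exchanged their heavy chain class at low frequency in culture. Subclones H23 and H27 (high switching replicates 1 and 2) did so spontaneously at high frequency. All 4 were grown in the same medium with 10% fetal calf serum, and the labels name no treatment, transgene or deletion. Each subclone gave 1 array of total RNA. Each is a single clone, and nothing in the labels says that subclones of a class arose separately, so p-values rest on the spread among 4 arrays and may not reach beyond them.

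In B cells the antigen-binding immunoglobulin has almost no cytoplasmic part, and signals pass through the CD79A and CD79B chains, whose tails carry tyrosine motifs that Src-family kinases such as LYN phosphorylate. SYK docks on those motifs and phosphorylates the adaptor BLNK, which brings BTK and phospholipase C gamma together and starts calcium and protein kinase C signals. CD22 carries inhibitory motifs that recruit the phosphatase SHP-1, the product of Ptpn6, which dampens the signal, and BANK1 is a scaffold that links LYN to calcium release. Plasma cells lower many genes of this set as they turn to secretion, while keeping the machinery that makes antibody.

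The median probe set had a log2 intensity between 5.25 and 5.30 on the 4 arrays, and values at or under that level need not track the amount of transcript. Of markers fixed for the line's identity, the plasma cell genes Sdc1 (12.44 to 12.66), Irf4 (12.45 to 12.79) and Jchain (14.35 to 14.49) were bright on every array. The B cell gene Ms4a1, which encodes CD20, read 11.24 to 11.66, whereas Cr2 and Fcer2a were under the median on each array. The summed intensity of 7 B cell markers was 5234 and 5442 in low and 6331 and 7221 in high switching subclones. These include the members Cd79a and Cd79b, and the other 5 markers summed to 3134 and 3213 against 2745 and 3495, so the classes overlapped without the members. For 8 plasma cell markers it was 72065 and 76323 against 66930 and 71914, and 2 of them fell (Xbp1 and Tnfrsf17). Prdm1 went the other way without passing, with 10.91 and 11.48 against 11.82 and 12.055 (0.74, limma adjusted p = 0.119). The median difference of these 8 was -0.01. Of markers of other lineages, limma called 0 of 8 T cell markers (1 had an unadjusted p under 0.05), 1 of 10 myeloid markers (Itgam, -1.38 on the log2 scale), 1 of 6 fibroblast markers (Lum, 1.21) and 0 of 3 erythroid markers (0 unadjusted). The summed intensity of the T cell markers was between 731 and 774 on all arrays. Myeloid markers summed to 587 and 594 in low and 439 and 451 in high switching subclones. Itgam alone gave 282.1 and 282.5 of these sums against 93.6 and 125.4, a larger fall than that of the sum. Adgre1, Cd14, Mpo, Elane, S100a8 and S100a9 were below the median of every array. Fibroblast markers summed to 178 and 186 against 226 and 235, with Col1a1 and Col3a1 below every median, and erythroid markers to 115 and 117 against 131 and 133, with Hba-a1 and Alas2 below every median. The part of these markers in the results was not tested. In a bulk culture, fewer cells with a transcript and less transcript per cell cannot be told apart.

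Sequence upstream of the start sites is shown for the genes with the largest fall (Bank1), the largest rise (Ptpn6) and the highest rank of signal on every array (Blnk), from RefSeq on build GRCm38.p6. Each line is the 250 bases before the start, 5′ to 3′ on the gene's own strand. Capitals mark matches, on either strand, to 3 motifs of factors known in B cells: the octamer ATTTGCAT, an ETS family core AGGAAGT, and an E-box CAGGTG that E proteins bind. The motifs were chosen after the sequences were seen. None of the motifs overlaps another in these lines.
Bank1 (chr3:136326067-136326316, minus strand): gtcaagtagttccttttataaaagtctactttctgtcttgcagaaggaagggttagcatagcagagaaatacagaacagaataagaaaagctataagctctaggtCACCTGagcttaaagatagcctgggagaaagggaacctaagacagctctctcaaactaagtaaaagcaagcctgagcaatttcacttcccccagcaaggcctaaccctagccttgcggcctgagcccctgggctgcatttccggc
Ptpn6 (chr6:124738710-124738959, minus strand): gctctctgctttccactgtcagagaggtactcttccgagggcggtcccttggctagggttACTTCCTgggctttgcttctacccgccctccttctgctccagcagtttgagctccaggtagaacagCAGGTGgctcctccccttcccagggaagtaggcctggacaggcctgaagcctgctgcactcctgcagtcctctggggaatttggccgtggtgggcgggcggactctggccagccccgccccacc
Blnk (chr19:40994222-40994471, minus strand): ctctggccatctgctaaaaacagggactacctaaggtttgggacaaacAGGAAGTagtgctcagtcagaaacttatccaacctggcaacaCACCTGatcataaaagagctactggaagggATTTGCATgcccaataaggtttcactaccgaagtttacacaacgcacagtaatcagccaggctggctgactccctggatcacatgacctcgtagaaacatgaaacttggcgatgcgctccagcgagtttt
The E-box was the only motif of the 3 in the Bank1 window. The Ptpn6 window held an E-box and an ETS core, and the Blnk window held these and the octamer, 130 bases before the start. RefSeq windows were given for 7 of the members, with 2 for Syk, and 7 of these 8 windows held the E-box letters, 3 the ETS core and 1 the octamer. Over all 32851 windows of this length, 17.2% held the E-box, 7.69% the ETS core and 1.6% the octamer. Since the motifs were chosen with member sequences seen, and Syk gave 2 of the 8 windows, these shares cannot be fairly weighed against each other. The marked stretches are matches of letters and say nothing of binding in these cells.

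High and low switching subclones were compared to ask which transcripts differ with the frequency of class switching. Among the members, Ptpn6 (on 1 of its 2 probe sets) and Cd79b rose and Bank1 fell in high switching subclones. The call of Cd79b did not hold in every alternative setting. Of the 13 probe sets, 3 passed (limma, Benjamini-Hochberg adjusted p under 0.05 over all probe sets), 2 higher and 1 lower. Over all probe sets tested 3.59% passed, 1.50% higher and 2.10% lower. The members' median log2 difference was 0.24, and that of all probe sets 0.01. Because the members were chosen with earlier results known, their share and median cannot be fairly weighed against those of all probe sets. The arrays of the classes did not overlap for 7 of the 13 probe sets, 5 higher and 2 lower in high switching subclones. Over all probe sets this held for 47.3% (25.1% higher and 22.2% lower), so the members' count lies near the background. Differences below are high minus low switching on the log2 scale.

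**Figure D1:**
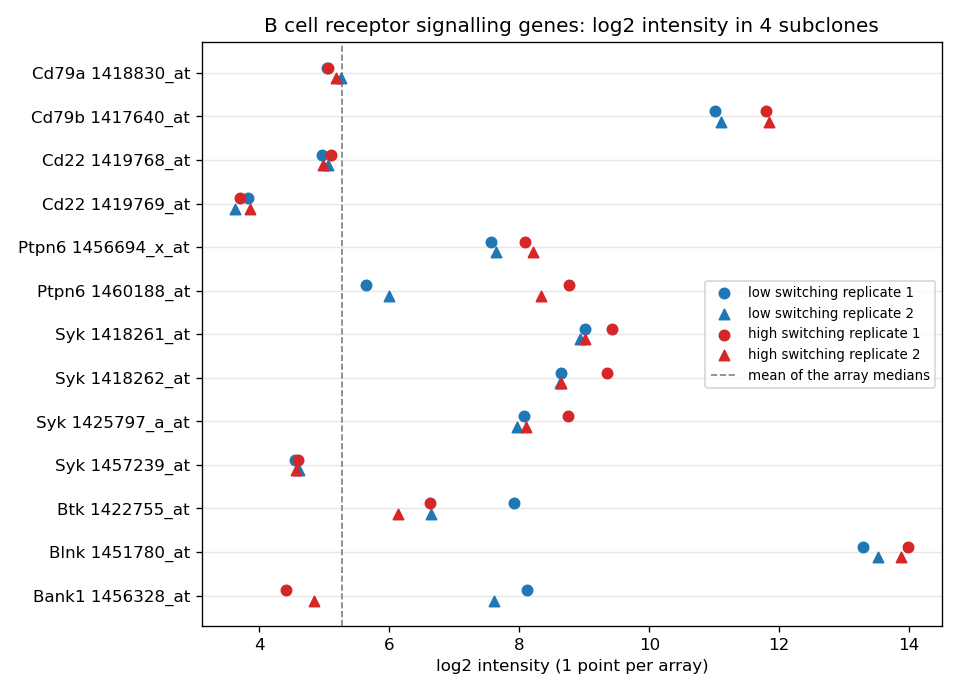
Log2 intensity (horizontal axis) of the 13 probe sets of B cell receptor signalling genes in each of the 4 subclones, with 1 point per array, blue for low and red for high switching, and a dashed line at the mean of the array medians. Bank1 and 1 Ptpn6 probe set separate the classes widely, and Syk and Btk each have 1 array apart from the other 3.

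Of the receptor chains, only the beta chain had a bright signal. Cd79b, which encodes it, read 11.01 and 11.10 in low and 11.79 and 11.85 in high switching subclones. Both high switching arrays lay above both low switching arrays, with little spread inside a class. The difference was 0.77 ± 0.11 (SE, n = 2 per class), a 1.70-fold rise with a limma adjusted p of 0.0238. This call was lost when any single array was left out (adjusted p from 0.0788 to 0.132) and when the hybridization control level was a block (0.1001), while the difference stayed between 0.72 and 0.81. Cd79a, the alpha chain with which CD79B pairs, read 5.04 and 5.25 in low and 5.05 and 5.18 in high switching subclones. The classes overlapped, and every value lay below the median probe set of its array. Its difference was -0.03, with a 95% interval from -0.33 to 0.27, in a range where a difference may not be seen.

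Cd22, the inhibitory coreceptor, was dim on both of its probe sets. The brighter (1419768_at) read 4.96 and 5.06 in low and 5.10 and 4.98 in high switching subclones, and the other (1419769_at) 3.82 and 3.63 against 3.70 and 3.86. The classes overlapped on both, and all readings lay below the array medians. The differences were 0.02 (95% interval -0.25 to 0.30) and 0.05 (-0.25 to 0.36), so no difference in Cd22 was detectable at this signal.

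Ptpn6, the gene of SHP-1, which CD22 and other inhibitory receptors recruit, had 2 probe sets that gave differences of unequal size. Probe set 1460188_at read 5.64 and 5.996 in low and 8.76 and 8.33 in high switching subclones. The high switching arrays lay far above the low switching ones, and the low switching readings were not far over the array medians. The difference was 2.73 ± 0.19 (SE), a 6.62-fold rise (95% interval of the log2 difference 2.27 to 3.19, limma adjusted p = 0.00299). It passed when each array was left out in turn, with differences from 2.51 to 2.94 and adjusted p-values from 0.00664 to 0.0193. Probe set 1456694_x_at read 7.56 and 7.63 in low and 8.09 and 8.21 in high switching subclones. The classes did not overlap there either, but the difference was 0.55 ± 0.11, with an interval from 0.29 to 0.82 and a limma adjusted p of 0.0563. Its name ending marks probes that may match more than 1 transcript. The adjusted p of this probe set moved between 0.0434 and 0.139 over the settings that kept all arrays, and it passed in 6 of 10, but in none of the 4 that left out an array (0.125 to 0.243). The intervals of the 2 Ptpn6 probe sets do not meet, so the size of the rise depends on the probe set read.

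Syk, the kinase that docks on the phosphorylated receptor chains, had 1 high switching array apart from the other 3 arrays on 3 of its 4 probe sets. Its probe set 1418262_at read 8.64 and 8.62 in low switching subclones and 9.35 and 8.64 in high switching replicates 1 and 2. Probe set 1425797_a_at read 8.07 and 7.97 against 8.75 and 8.10, and probe set 1418261_at read 9.01 and 8.94 against 9.42 and 9.01. On all 3, high switching replicate 1 was the highest array, and high switching replicate 2 read close to the low switching arrays. The classes did not overlap on 1425797_a_at, where high switching replicate 2 lay just above both low switching arrays, and overlapped on the others. Replicate 2 lay 0.72 below replicate 1 on 1418262_at, a gap that 1.07% of all probe sets matched or passed in this pair, and 0.65 and 0.41 below it on the others. The differences between classes were 0.36 (95% interval -0.20 to 0.92), 0.40 (-0.12 to 0.93) and 0.24 (-0.15 to 0.63), and limma called 0 of 4 Syk probe sets (0 at an unadjusted p under 0.05). Without high switching replicate 1 they were 0.0037, 0.08 and 0.03, and without high switching replicate 2 they were 0.72, 0.73 and 0.45. The fourth, 1457239_at, read 4.55 to 4.61 on all arrays, below the median probe set.

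**Figure D2:**
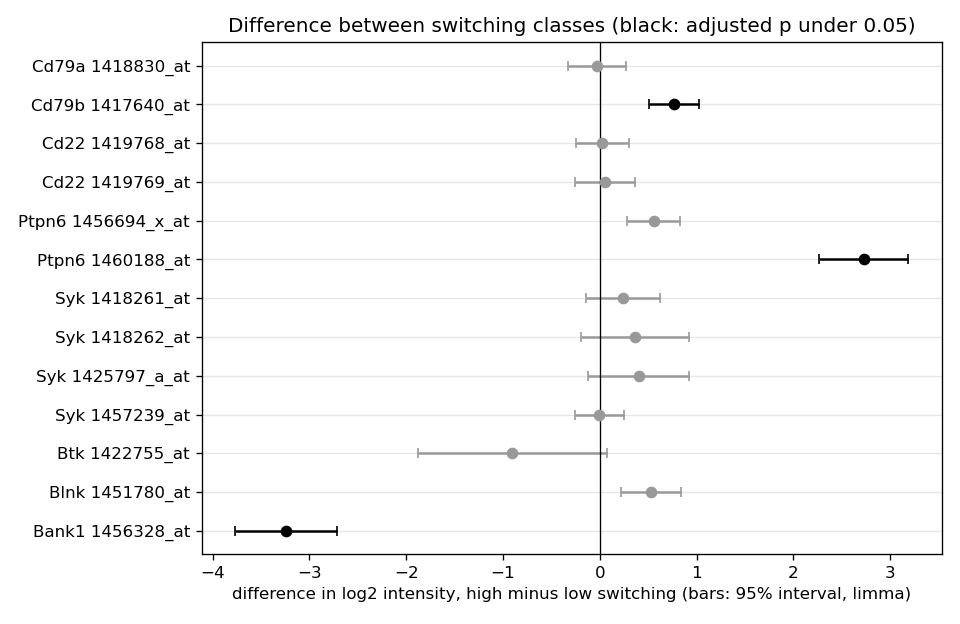
Difference in log2 intensity, high minus low switching (horizontal axis), for the 13 probe sets, with 95% intervals from limma (n = 2 arrays per class) and black for an adjusted p under 0.05. Cd79b at 0.77 and Ptpn6 1460188_at at 2.73 lie to the right, Bank1 at -3.24 lies to the left, and the widest interval is that of Btk.

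Btk, a Tec-family kinase that activates phospholipase C gamma, also differed most inside a class. It read 7.91 in low switching replicate 1 and 6.65 in replicate 2, and 6.62 and 6.14 in high switching replicates 1 and 2. Low switching replicate 1 stood apart, and the other low switching array lay just above the high switching arrays. The gap of 1.27 between the low switching arrays was matched or passed by 0.127% of all probe sets in that pair. The difference between classes was -0.90 ± 0.40 (SE), with a 95% interval from -1.88 to 0.08 and a limma adjusted p of 0.306. It was -0.27 when low switching replicate 1 was left out and -1.54 when the other was, and passed in neither.

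Blnk, the adaptor that joins SYK to BTK and phospholipase C gamma, was brighter than 99.2% of probe sets on every array. It read 13.29 and 13.52 in low and 13.99 and 13.88 in high switching subclones. Both high switching arrays lay above both low switching arrays. The difference of 0.53 ± 0.13 (SE, 95% interval 0.22 to 0.84) did not pass, with a limma adjusted p of 0.0879. It passed with a mean-variance trend (limma adjusted p = 0.0336) and with robust estimation added (0.0379), at the same difference. These were the only 2 of 11 alternatives with all arrays in which Blnk passed, and the adjusted p reached 0.138 in the others. Without 1 array the difference was between 0.41 and 0.64. At this brightness, signals may be compressed, and a fold may be understated.

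Bank1, the scaffold that binds LYN and phospholipase C gamma, had the largest difference of the members. It read 8.12 and 7.61 in low and 4.42 and 4.84 in high switching subclones. Both high switching readings lay below the median probe set of their arrays, and both low switching readings well above it. The difference was -3.24 ± 0.21 (SE, 95% interval -3.76 to -2.72, limma adjusted p = 0.00241), or 9.46-fold higher in low switching subclones. That fold is approximate, since the dimmer readings may be background. The call held when each array was left out, with differences from -3.49 to -2.99 and adjusted p-values from 0.00583 to 0.0119, and under every other setting tried (-3.27 to -2.61). Only 1 probe set stands for Bank1.

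To see whether genes beside a member moved with it, the 5 measured genes on each side were read in the order of assembly GRCm38.p6. Around Bank1, on chromosome 3, limma called 0 of 10 neighbours (2 at an unadjusted p under 0.05), with differences from -0.18 to 1.10 and a median of 0.17. The largest of these was that of Manba, a lysosomal mannosidase (1.10, adjusted p = 0.109), and Ppp3ca, a catalytic subunit of calcineurin, had 0.22. Around Ptpn6, on chromosome 6, the complement protease gene C1ra fell (-1.09 ± 0.19, adjusted p = 0.0394), and the other 9 did not pass. The median of the 10 was 0.37, where that of the 992 genes measured on chromosome 6 was 0.07, and 7 of 10 had an unadjusted limma p under 0.05. The share of all genes at that unadjusted cut is not given here, for this or the other such counts. Of the 99 other pathway genes measured (below), 26 reached it. Whether these neighbours differ from other genes was not tested. Beside Syk, on chromosome 13, the transcription factor gene Nfil3 rose, from 7.17 and 7.26 to 8.84 and 8.28 (1.34 ± 0.19, adjusted p = 0.0257). Of the 80 neighbours of all 8 members, 2.5% passed (1 rose and 1 fell), against 4.82% of all 18193 genes when the brightest probe set stands for a gene.

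**Figure D3:**
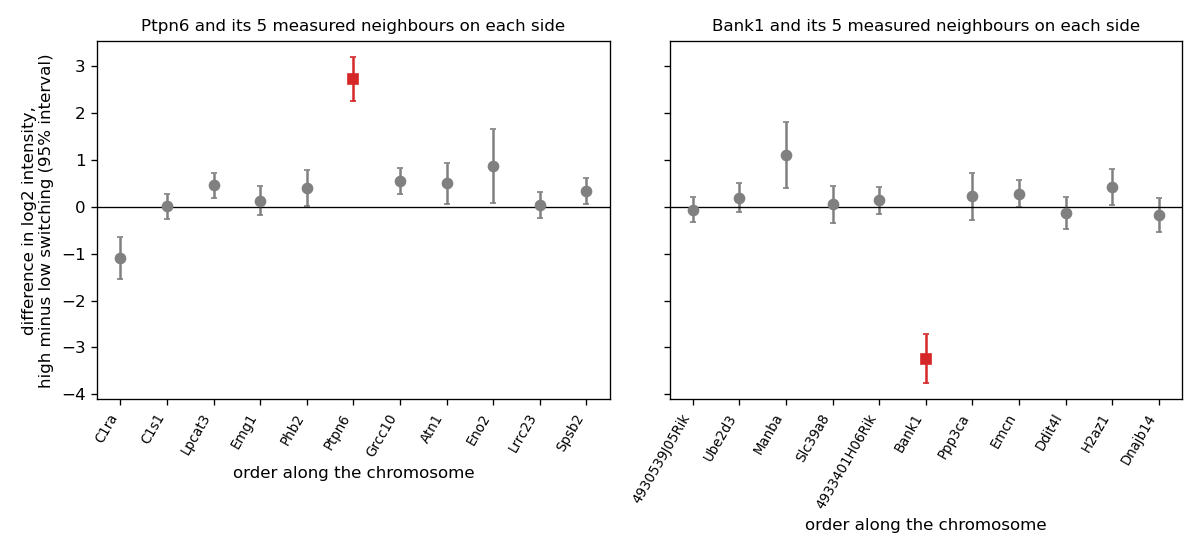
Difference in log2 intensity, high minus low switching (vertical axis, 95% intervals), for Ptpn6 (1460188_at) and Bank1, in red, and their 5 measured neighbours on each side, in grey, in order along the chromosome. The neighbours of Bank1 lie between -0.18 and 1.10, against -3.24 for Bank1. Those of Ptpn6 lie between -1.09 and 0.87, against 2.73 for Ptpn6 on 1460188_at. Each neighbour is read on its brightest probe set. The brighter Ptpn6 probe set (1456694_x_at, not drawn) had 0.55, inside the range of the Ptpn6 neighbours.

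The probe sets closest to Bank1 in all 4 arrays, by the summed absolute distance of log2 values, were those of the phospholipase gene Pla2g4a (distance 0.68, difference -3.06), Myo3b (1.02 and -2.85) and Tlr4, a receptor for bacterial lipopolysaccharide (1.26 and -3.03). Those closest to Ptpn6 (1460188_at) were Plxnc1, a semaphorin receptor (1.17 and 2.54), Atp6v0e2 (1.30 and 2.08) and Fam124a (1.32 and 2.10). With 4 arrays in 2 classes, likeness of this kind says little more than that the genes share a level and a direction.

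Of 111 other genes of the pathway, in 7 lists, 99 were measured, and 5 passed: 1 rose and 4 fell. That is 5.05%, beside 4.82% of all genes (2.04% higher and 2.78% lower), and their median difference was 0.02, beside 0.01 for all genes. Among coreceptors and inhibitory receptors limma called 0 of 13 (2 at an unadjusted p under 0.05). Cd81, a tetraspanin of the B cell surface, read 11.69 and 11.98 in low and 10.86 and 11.24 in high switching subclones. The difference of -0.79 had an adjusted p of 0.0689, although the classes did not overlap. Ptprc, the phosphatase CD45 that primes Src-family kinases, read 11.36 and 12.25 against 12.26 and 12.48 (0.57, adjusted p = 0.364). Fcgr2b, the inhibitory Fc receptor, read 9.31 and 7.97 against 9.55 and 8.97 (0.62, adjusted p = 0.533), with low switching replicate 2 the lowest array.

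Among Src and Tec kinases and their regulators, 1 of 13 genes passed. Ptpn11, the gene of the phosphatase SHP-2, a relative of SHP-1, fell from 10.82 and 10.71 to 10.03 and 10.05 (-0.73 ± 0.11, adjusted p = 0.0278). This is the direction opposite to that of Ptpn6 on 1460188_at. The other 2 Ptpn11 probe sets had differences of -0.44 and -0.17 and did not pass. The Src-family kinases Fyn (-0.12, adjusted p = 0.855) and Blk (0.33, adjusted p = 0.188) did not pass, and Blk was under the array median throughout. Fgr, another kinase of that family, passed on 1 of 2 probe sets (1442804_at, 5.81 and 5.67 against 7.67 and 6.82, 1.50 ± 0.27, adjusted p = 0.0428), and its brighter probe set had the same difference with an adjusted p of 0.0631. Pag1, a membrane adaptor that anchors the Src inhibitor CSK, passed on 1 of 4 probe sets (1436570_at, 5.09 and 5.29 against 7.002 and 6.57, 1.60 ± 0.17, adjusted p = 0.0124). The other Pag1 probe sets had differences of 0.16, 0.18 and 0.19.

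Lipid and calcium signalling held 3 of the 5 genes. Plcg2, the phospholipase C gamma that BLNK and BTK activate, rose from 11.10 and 11.24 to 11.97 and 11.89 (0.76 ± 0.11, adjusted p = 0.0277). Stim2, a calcium sensor of the endoplasmic reticulum, fell from 8.20 and 7.89 to 6.61 and 6.65 (-1.41 ± 0.14, adjusted p = 0.00924). Itpr3, a calcium release channel of the same membrane, fell from 10.44 and 10.07 to 9.37 and 9.36 (-0.88 ± 0.15, adjusted p = 0.0369). The classes did not overlap for any of these. The Stim2 call held when each array was left out (-1.56 to -1.25). The calls of Plcg2 and Ptpn11 were lost whichever array was left out, and that of Itpr3 passed in 1 of these 4 fits. With all arrays kept, the Stim2 call passed in 10 of 11 other settings. It was lost when the hybridization control level was a block (limma adjusted p = 0.0646). The second Stim2 probe set was under the array medians and had a difference of -0.06. Inpp5d, the gene of the inositol phosphatase SHIP-1, which acts against this branch, had a difference of 0.12 (adjusted p = 0.713). The other 13 genes of the list did not pass either.

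Of 22 adaptors, exchange factors and Ras pathway genes, only Rasgrp3 passed. This exchange factor, which diacylglycerol recruits to activate Ras, fell on both probe sets, from 6.59 and 5.90 to 3.86 and 4.17 on 1438030_at (-2.23 ± 0.24, adjusted p = 0.0126) and from 5.92 and 5.74 to 4.75 and 5.15 on 1438031_at (-0.88 ± 0.16, adjusted p = 0.0469). The high switching readings lay below the median probe set, so these sizes are approximate, and the call of 1438031_at passed in 1 of the 4 fits with an array left out. Limma called 0 of 9 genes of the protein kinase C branch (3 at an unadjusted p under 0.05, median -0.32), 0 of 12 nuclear targets (3 unadjusted, median 0.06) and 0 of 13 transcription factors of B cell receptor genes (2 unadjusted, median 0.12). Of the nuclear targets, the cyclin gene Ccnd2 fell on 1 of 7 probe sets (1416123_at, -0.88, adjusted p = 0.0301). The median of the protein kinase C list was 0.01 with high switching replicate 1 left out and -0.55 with high switching replicate 2 left out. Leaving out low switching replicate 1 or 2 gave -0.20 and -0.07, so the direction of this list is open to the choice of arrays.

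The factors that control Cd79a, Cd79b and Blnk in B cells had readings of different brightness. Spi1, the gene of the ETS factor PU.1, read 9.26 and 9.32 in low and 9.42 and 9.39 in high switching subclones (0.12, adjusted p = 0.648). Ebf1 read 6.62 and 7.64 against 7.95 and 7.55 (0.62, adjusted p = 0.396), with low switching replicate 1 lowest. Pax5 read 5.55 and 5.19 against 5.46 and 5.29, at the array medians (0.002, 95% interval -0.37 to 0.38), and Spib read 5.99 and 5.82 against 6.10 and 5.48 (-0.12, adjusted p = 0.849). None of these 4 genes passed. The 2 factors of the list with an unadjusted p under 0.05 were Tcf3 and Ikzf3, named here after their values were seen. Tcf3, the gene of the E proteins E12 and E47, read 9.15 and 9.15 in low and 8.73 and 8.48 in high switching subclones (-0.54, limma adjusted p = 0.0809), and the classes did not overlap on any of its 3 probe sets. Ikzf3, the gene of the zinc finger protein Aiolos, read 7.19 and 7.13 against 7.75 and 7.62 (0.53, limma adjusted p = 0.0636, and 0.0480 to 0.218 under the other settings). The classes did not overlap on this probe set of Ikzf3 either. This held for 47.3% of all probe sets, so it adds little for Tcf3 or Ikzf3.

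**Figure D4:**
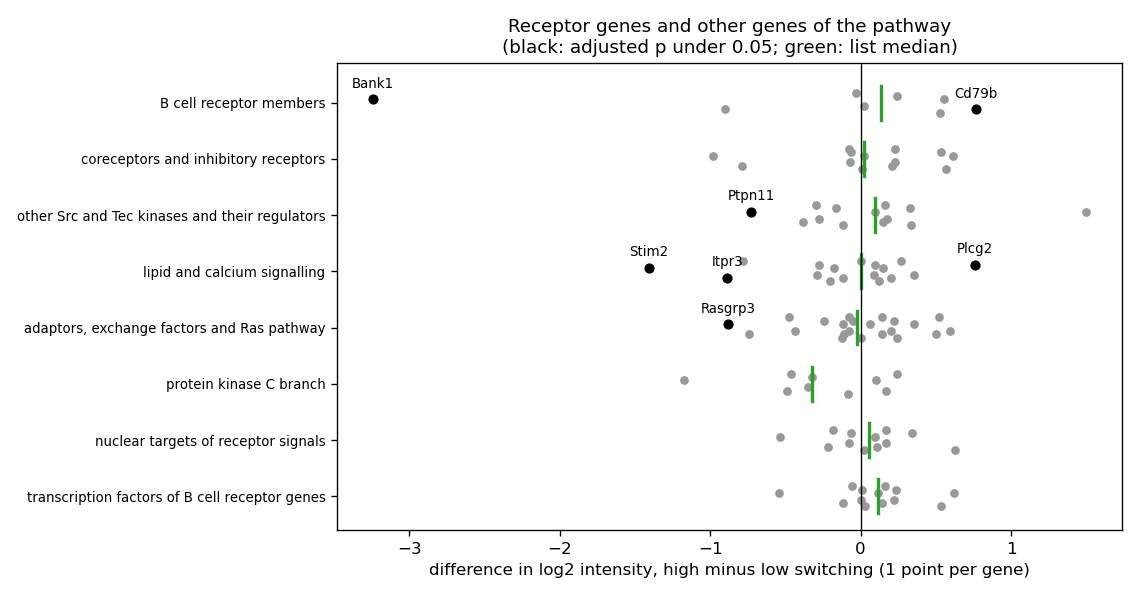
Difference in log2 intensity, high minus low switching (horizontal axis), with 1 point per gene, read on its brightest probe set, for the members (top) and 7 lists of other pathway genes. Black points with names have an adjusted p under 0.05 and green bars are list medians; Ptpn6 is at 0.55 here, since its brighter probe set stands for it.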

How the data were processed

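Total RNA of 4 subclones was labelled with biotin and read on 1 Affymetrix expression array each, per the labels. RMA (background correction, normalization and probe summary) is named, without a version, in the submitters' processing notes, and the authors deposited linear intensities. No genome build is stated in the labels. The deposited intensities were linear and were transformed to log2 first, as planned for linear values. Control probe sets (64) were left out, 45037 were tested, and 34945 had 1 gene symbol in the 2016 platform annotation, 932 several and 9160 none. High minus low switching was fitted with limma 3.58.1 under R 4.3.3 (two-sided moderated test), adjusted over all probe sets (threshold 0.05), with moderated standard errors and no filter. The smallest two-sided p of an exact permutation test of 2 against 2 arrays is 0.333, and calls therefore rest on limma's pooled variance. Lists used the probe set with the highest mean for each gene, and were described by counts and medians without a set test. Named were all member probe sets, up to 4 passing genes a list and direction, a fixed set of pathway genes, passing neighbours and the 3 probe sets closest to Ptpn6 and Bank1. Ccnd2, Fgr and Pag1, which passed only on a dimmer probe set, and Manba, Ppp3ca, Prdm1, Tcf3 and Ikzf3 were added after their values were seen. The members and lists were chosen with earlier results of these data known. The fit was also run on data simulated from limma's own variance model, with differences added only to brighter probe sets. Its outcome is not given here, and it does not bear on dim probe sets. Figures used matplotlib 3.10.9 and Python 3.11.15.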

Additional observations from a re-analysis of the deposited data

How the results depend on the processing

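Alternatives were a mean-variance trend (also robust), 2 filters on dim probe sets, 3 normalizations, fewer probe sets, 16 added before log2, the level of hybridization controls as a block, and leaving out each array. No paired analysis was possible because the subclone names share only 1 number between the classes. The direction and call of Bank1 and of Ptpn6 (1460188_at) were kept in every setting that held them. All probe sets past the threshold numbered 1618, 152 with the control block, and 308 to 582 when an array was left out. Member probe sets past it numbered 2 to 4 in all settings. Pathway genes past it numbered 5, 3 with 16 added, 0 with the control block (27 by limma at an unadjusted p under 0.05), and 1 to 3 without 1 array. Small differences that passed in no setting changed sign: Cd22 1419768_at was -0.0018 with quantile normalization again and -0.017 with cyclic loess, and -0.036 to 0.083 without 1 array. Pax5 was -0.019 with quantile normalization, -0.043 with cyclic loess, -0.020 with median centring, -0.00023 with 16 added, and -0.18 to 0.18 without 1 array. Without 1 array, Cd79a ranged from -0.13 to 0.077, Cd22 1419769_at from -0.041 to 0.15, Syk 1457239_at from -0.032 to 0.023, Fcgr2b from -0.049 to 1.28, Fyn from -0.36 to 0.12 and Spib from -0.43 to 0.19. The cause was not tested. With 2 arrays a class, and signals of Cd79a, Cd22 and high switching Bank1 under the median probe set, small differences may have been missed.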

Other observations

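Btk was not alone in reading highest in low switching replicate 1. Fcrla, an Fc receptor-like protein of B cells, read 8.38 and 6.67 in low and 6.66 and 6.44 in high switching subclones on 1425802_a_at. That is the brightest of its 3 probe sets, and the others are not given here. Vav3, an exchange factor of the receptor pathway, read 6.46 and 4.78 against 3.95 and 3.44 on 1417122_at, where the other 2 probe sets read 5.75 and 5.77 in that subclone and 4.69 or less in the others. Ebf1, a transcription factor of early B cells, was lowest in the same subclone on 4 of its 5 probe sets, with 6.01 against 6.91 to 7.49 on 1416301_a_at. None of these probe sets passed between the classes, and the genes were chosen after their values were seen. No test of a single subclone was possible with 1 array for each.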
